A study of Sus scrofa with 20 samples.

Results

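The effect of silencing MRTF-A on top of silencing polycystin-1 (PC1) was examined in LLC-PK1 cells, a cloned proximal tubule epithelial line of the pig. Its members are the 9 libraries that the sample labels place in the siPC1 group (5 libraries) and the siPC1+siMRTF-A group (4 libraries), out of 20 libraries in 5 groups. The study's text gives other numbers of libraries for these groups and conflicting concentrations of siMRTF-A, and the meaning of the siPC1 replicate named A2 is not given in the sources used here. Both groups received an siRNA against PC1, and the siPC1+siMRTF-A cells also received an siRNA against MRTF-A. The other groups are 4 libraries of a non-related control siRNA (siNR), 3 libraries of an siRNA against polycystin-2 (siPC2) and 4 of siPC2+siMRTF-A. RNA was taken 48 h after transfection, with serum withdrawn for the last 24 h, as the study's methods state. No group received siMRTF-A alone, so its effect is measured here only in polycystin-silenced cells. The study lists a single siRNA sequence against MRTF-A. Effects of that siRNA on other targets, or of any difference in total siRNA dose, cannot be told apart here from loss of MRTF-A. Nothing in the labels says whether the libraries of a group came from separate cultures, so the p-values measure the spread between these libraries, which may be technical.

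MRTF-A (myocardin-related transcription factor A) is a co-activator of serum response factor. It is held in the cytoplasm by monomeric actin and is released to the nucleus when actin polymerizes, where it is known to drive genes of the actin cytoskeleton, of adhesion and of the extracellular matrix. Polycystin-1 is a large membrane protein of the primary cilium and the cell surface, and polycystin-2 is a cation channel that forms a complex with it. Inherited mutations in either gene cause autosomal dominant polycystic kidney disease, in which tubule epithelium forms cysts and the tissue around it scars. The question put by this comparison is which transcripts of PC1-silenced epithelium change when MRTF-A is silenced as well.

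The files list Ensembl transcripts of the pig and do not pair them with gene names. None of the transcript identifiers matched the gene tables at hand (0 of 15623 and 0 of 30371 entries), so transcripts are given by identifier, 2 in each direction. The levels of the siRNA targets themselves, and the markers of the tubule epithelium and of other cell types, were not analysed here. In RNA from whole cultures, fewer cells expressing a transcript and less of it in each cell cannot be told apart.

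Total estimated counts ran from 4421001 to 46931983 in the siPC1 libraries and from 22874625 to 52367885 in the siPC1+siMRTF-A libraries. The smallest total belongs to siPC1 replicate 1, in which a normalized count of 100 rests on 12.8 reads, and 3 of the 9 libraries stood apart. Correlated with the mean of its own group's other libraries on the log2(normalized count + 1) scale, siPC1 replicate 1 reached 0.799, siPC1 replicate 4 reached 0.86 and siPC1+siMRTF-A replicate 4 reached 0.912. The other siPC1 libraries reached 0.915 to 0.925 and the other siPC1+siMRTF-A libraries 0.941 to 0.944. On the first principal component, which held 42.9% of the variance, siPC1 replicate 1 lay at -245 and the other 8 libraries between 24.9 and 38.8. Replicate 4 of siPC1 led the second component (17% of the variance) and replicate 4 of siPC1+siMRTF-A the third (10.2%), so none of the leading 3 components separated the groups. Every pair of libraries within these groups differed by more than counting noise (chi-square per degree of freedom of 9.34 or more), so each library was counted once.

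Adding siMRTF-A to siPC1 lowered 306 transcripts and raised 327. These were 1.1% and 1.18% of the 27702 transcripts tested, by edgeR's quasi-likelihood test. A call needed 3 things: a p of at most 0.05 after Benjamini-Hochberg adjustment, a log2 fold change beyond 0.6 in either direction, and 50 or more normalized counts on average. Most of the changes were small. The median log2 fold change was -0.79 among the lowered transcripts (quartiles -1.02 and -0.67) and 0.80 among the raised ones (quartiles 0.68 and 1), against 0.01 over all transcripts tested. Only 79 lowered and 82 raised transcripts passed 1 on the log2 scale, and 11 and 6 passed 2. The balance of the directions was not fixed, since lowered transcripts outnumbered raised ones when library totals replaced the TMM factors (337 against 288), when only these groups were modelled (265 against 231), or when siPC2+siMRTF-A replicate 3 was left out (328 against 290). The same held without siPC1+siMRTF-A replicate 1 (308 against 293) and, barely, without its replicate 2 (268 against 267).

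When the test was made against the fold threshold itself (glmTreat), 52 transcripts were lowered and 29 raised, or 0.188% and 0.105% of those tested. Without any fold threshold, 1077 were lowered and 1213 raised. Between these groups the values of the libraries did not overlap for 274 of the 306 lowered and 305 of the 327 raised transcripts, where 5.03% of all tested transcripts were lower in every siPC1+siMRTF-A library and 6.44% were higher. That share follows in part from the call, which uses the same libraries.

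**Figure D1:**
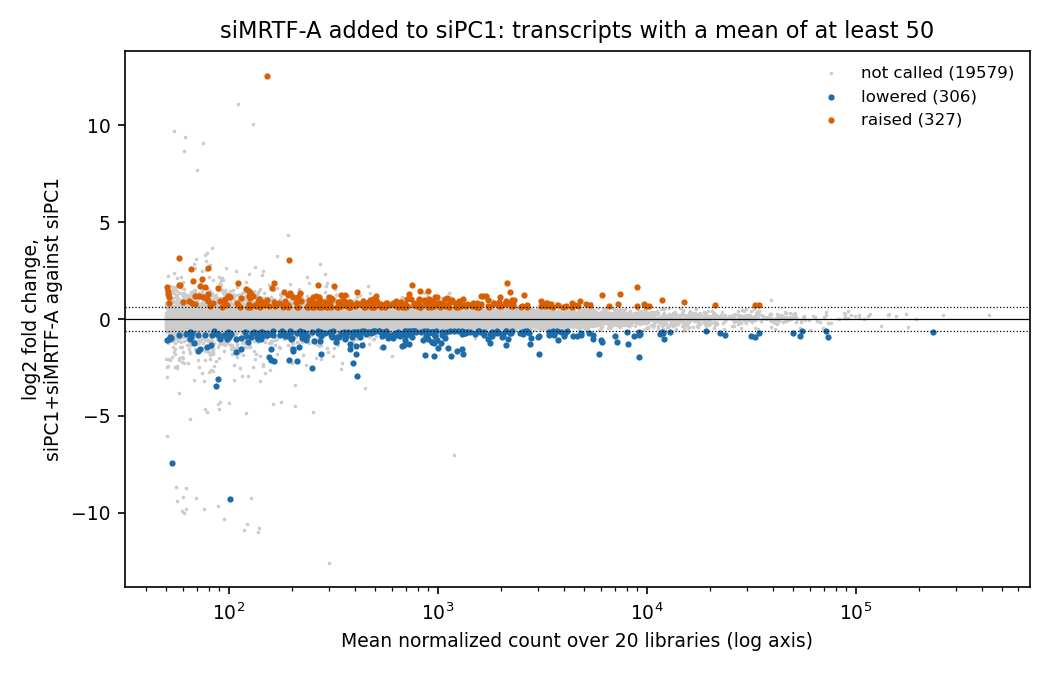
Each point is a transcript that averaged 50 or more normalized counts, placed by that mean over the 20 libraries (x axis, log scale) and by its log2 fold change between siPC1+siMRTF-A and siPC1 (y axis). The 306 lowered and 327 raised transcripts lie at every level of abundance and mostly between 0.6 and 1 in size.

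Called transcripts were found at every abundance. In the tier with a mean normalized count from 50 to 200, 74 of 4838 transcripts were lowered (1.53%) and 82 were raised (1.69%). From 200 to 1000 the shares were 1.61% and 1.83% of 8032, and from 1000 to 5000 they were 1.17% and 1.36% of 6044. In the tier of 5000 and above, 32 of 1298 were lowered (2.47%) and 16 were raised (1.23%). The median standard error of the log2 fold change fell from 0.32 in the lowest tier to 0.10 in the highest, so a change of a given size was measured more closely in abundant transcripts. The difference between the directions in the highest tier was not tested, and the transcripts of a tier need not change independently of each other.

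These transcripts made up a small and shifting part of each library. The lowered transcripts held 3.16%, 2.97%, 2.73%, 3.66% and 3.12% of the counts of siPC1 replicates 1, 2, 3, 4 and A2, and 1.81%, 1.58%, 1.85% and 1.85% in the siPC1+siMRTF-A replicates. The raised transcripts held between 0.853% and 0.923% of an siPC1 library and between 1.51% and 1.65% of an siPC1+siMRTF-A library. In siNR cells the shares were 3.57% to 3.98% for the lowered and 1.01% to 1.16% for the raised transcripts. The ranges of siPC1 and siPC1+siMRTF-A did not overlap in either direction, which the choice of the transcripts fixes. A few very abundant transcripts weigh heavily here. The most abundant of the lowered ones, singled out after its values were seen and the third most abundant of all tested, had 158400 to 283200 normalized counts in siPC1, 120700 to 145300 in siPC1+siMRTF-A and 312400 to 417000 in siNR (log2 fold change -0.67, SE 0.15, adjusted p = 0.00703 by edgeR). Its change on adding siMRTF-A to siPC2 was -0.16 (SE 0.16, adjusted p = 0.801 by edgeR). The difference between the arms was -0.51 (SE 0.22, adjusted p = 0.465 by edgeR). Without this transcript the lowered ones held 2.81% to 3.13% of an siNR library and 2.31% to 2.92% of an siPC1 library. In siPC1+siMRTF-A they held 1.27% to 1.48%. Lowered transcripts ranked 28, 48 and 56 in abundance likewise had lower means in siPC1 than in siNR, and lower again in siPC1+siMRTF-A. The lowered transcript ranked 205 had a higher mean in siPC1 than in siNR.

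Of the transcripts named, ENSSSCT00000050048.3 fell the most. Its normalized counts were 125.4, 179.7, 173.5, 138.8 and 152.5 in siPC1 replicates 1, 2, 3, 4 and A2, and 23.97, 7.764, 22.74 and 16.74 in the siPC1+siMRTF-A libraries. Every siPC1 library was thus several times higher than the highest siPC1+siMRTF-A library. That these groups do not overlap was required of every transcript named here. The means were 154 ± 22.9 (SD, n = 5) and 17.8 ± 7.40 (SD, n = 4), a log2 fold change of -3.11 (SE 0.29, adjusted p = 2.58e-06 by edgeR). The level in siNR was 128.5 ± 24.8 (SD, n = 4), so that siPC1 alone differed from the control by 0.27 on the log2 scale (95% interval -0.28 to 0.81, adjusted p = 0.443 by edgeR) and the cells with both siRNAs by -2.84 (SE 0.29). It fell after siPC2 as well, where the siPC2 libraries had 124.3, 122.1 and 101.1 and the siPC2+siMRTF-A libraries 23.79, 21.16, 14.38 and 19.73. That fall was -2.54 (SE 0.30, adjusted p = 5.43e-05 by edgeR), and the difference between the falls after siPC1 and after siPC2 was -0.57 (95% interval -1.41 to 0.28, adjusted p = 0.792 by edgeR). Its estimated counts were not whole numbers in any of the 20 libraries, so its reads were shared with other transcripts and its level depends on how they were divided.

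ENSSSCT00000048745.2 was measured at a higher level and with less spread. Its normalized counts were 697.5, 694.6, 760.2, 970 and 647.2 in the siPC1 libraries and 105.5, 97.83, 101.8 and 92.05 in the siPC1+siMRTF-A libraries. The siMRTF-A libraries lay close together and all far below the siPC1 libraries. The log2 fold change was -2.92 (SE 0.14, adjusted p = 6.34e-10 by edgeR), from 753.9 ± 127 (SD, n = 5) to 99.3 ± 5.76 (SD, n = 4). In siNR the values were 513.9, 439.4, 518.8 and 510.6. This transcript was therefore higher in siPC1 than in siNR, by 0.61 (SE 0.12, adjusted p = 0.000525 by edgeR), and lower than siNR in siPC1+siMRTF-A, by a log2 fold change of -2.32 (SE 0.14). Normalized counts of 537.4, 553.7 and 550 in siPC2 stood against 114.6, 98.58, 72.95 and 87.81 in siPC2+siMRTF-A, a log2 fold change of -2.54 (SE 0.15, adjusted p = 1.12e-08 by edgeR). The difference between the 2 falls was -0.38 (95% interval -0.78 to 0.03, adjusted p = 0.583 by edgeR), and here too the estimated counts were not whole in any library.

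Among raised transcripts, ENSSSCT00000084059.2 was listed at 0 in all 5 siPC1 libraries and had 641.8, 920.1, 590.3 and 863.6 normalized counts in the 4 siPC1+siMRTF-A libraries. It was also at 0 in every siNR and every siPC2+siMRTF-A library, and in siPC2 it was at 0, 29.52 and 0. Against a floor of 3 counts per library, the mean of 753.9 ± 162 (SD, n = 4) in siPC1+siMRTF-A was at least 105-fold higher than in siPC1 (log2 of at least 6.72, adjusted p = 0.00297 by edgeR). The counts behind these values were large, from 515.934 in replicate 4 to 1185.291 in replicate 2. They were not whole numbers in those 4 libraries, so reads that could belong to more than one transcript were assigned to this one there, and whether another transcript lost them was not tested. The test between the arms sets its rise after siPC1 against its change after siPC2, from a count in 1 siPC2 library to 0. That difference had an adjusted p of 0.0248 by edgeR. That call was not stable: the adjusted p was between 0.0551 and 0.0701 without any 1 of the 4 siPC1+siMRTF-A libraries, 0.144 with the replicate number as a block, and 1 without siPC2 replicate 3, the only siPC2 library with a count, since both siPC2 groups are then at 0.

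ENSSSCT00000030069.3 showed no sign of divided reads, as its counts were whole numbers in all 20 libraries. It was almost silent in siNR, with normalized counts of 2.993, 2.319, 0.8183 and 1.044. In siPC1 it reached 23.51, 24.36, 18.59, 30.23 and 16.01, and in siPC1+siMRTF-A 136.3, 143.6, 139.4 and 132.2. The 3 groups formed 3 separate levels with no overlap. The step from siPC1 to siPC1+siMRTF-A was 2.62 (SE 0.26, adjusted p = 4.27e-06 by edgeR) on the log2 scale, and the step from siNR to siPC1 was 3.58 (SE 0.31, adjusted p = 2.75e-08 by edgeR). The value in siPC1 replicate 1 rests on 3 reads, and without that library the call and its direction were the same. In the siPC2 libraries the level was already 111.8, 129.3 and 130.5, and with siMRTF-A it was 114.6, 146.1, 130.5 and 151. The change there was 0.13 (95% interval -0.46 to 0.71, adjusted p = 0.952 by edgeR), and the difference between the arms was 2.49 (95% interval 1.70 to 3.27, adjusted p = 0.00425 by edgeR).

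**Figure D2:**
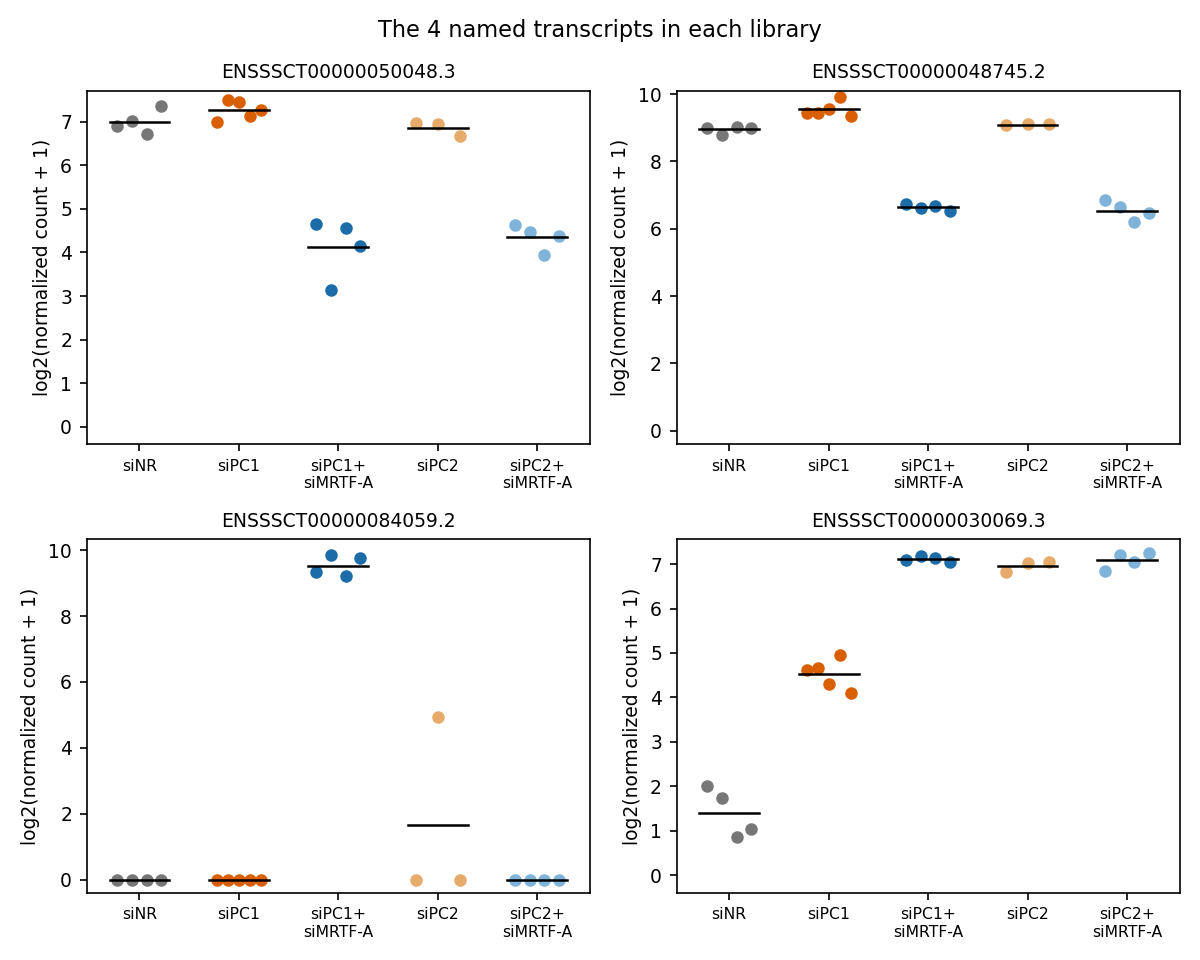
Each panel gives 1 transcript, with its log2(normalized count + 1) in every library on the y axis, the 5 groups on the x axis and the group mean as a bar. The 2 lowered transcripts drop with siMRTF-A after siPC1 and after siPC2, whereas ENSSSCT00000084059.2 appears in siPC1+siMRTF-A and ENSSSCT00000030069.3 steps up from siNR to siPC1 and again to siPC1+siMRTF-A.

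Few of the called transcripts were listed at 0 in a whole group. Of the 20212 tested with a mean of at least 50, 12 were at 0 in every siPC1 library and 23 in every siPC1+siMRTF-A library. ENSSSCT00000084059.2 was the 1 raised transcript at 0 in every siPC1 library. There were 2 lowered transcripts at 0 in every siPC1+siMRTF-A library, at least 24.1-fold and 6.56-fold lower than the siPC1 mean by the floor of 3 counts per library. For both of these at least 1 siPC1 library was at 0 as well. Among the raised transcripts 11 (3.36%), ENSSSCT00000084059.2 and ENSSSCT00000030069.3 included, had a mean under 5 normalized counts in siNR. That share was 0.46% among those tested with a mean of at least 50 and 5.93% of all tested. The means of the 11 ran from 0 to 880 in siPC1 and from 138 to 2000 in siPC1+siMRTF-A. No lowered transcript had so low a level in siNR.

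By their medians, the lowered transcripts lay above the siNR level in siPC1 and below it in siPC1+siMRTF-A, and the raised transcripts the reverse. The comparisons of siPC1 and of siPC1+siMRTF-A with siNR share libraries with each other and with the comparison that chose the transcripts, so the values are given side by side and not tested. The lowered transcripts had a median log2 fold change of 0.22 for siPC1 against siNR and -0.69 for siPC1+siMRTF-A against siNR. For the raised transcripts these medians were -0.20 and 0.60. Over all tested transcripts they were 0.02 and 0.01, and siPC1 alone raised 15% and lowered 13.2% of the transcripts tested, while siPC1+siMRTF-A raised 14.8% and lowered 12.9%. The median level of a lowered transcript was 574 normalized counts in siNR, 720 in siPC1 and 426 in siPC1+siMRTF-A. The median level of a raised transcript was 342, 330 and 586.

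The spread within each set was wide. Compared with siNR, the quartiles of the lowered transcripts were -0.45 and 0.88 for siPC1 and -1.39 and 0.05 for siPC1+siMRTF-A. Those of the raised transcripts were -1.03 and 0.84, and -0.22 and 1.68. The lowered and the raised transcripts therefore each held some that siPC1 had moved up and some that it had moved down. Library by library, the median of log2(normalized count + 1) over the lowered transcripts, relative to the siNR mean, was 0.16, 0.12, 0.20, 0.33 and 0.20 in siPC1 replicates 1, 2, 3, 4 and A2. It was -0.56, -0.71, -0.69 and -0.66 in the siPC1+siMRTF-A replicates. Over the raised transcripts the same medians were -0.32, -0.15, -0.10, -0.14 and -0.16 in siPC1 and 0.67, 0.64, 0.59 and 0.57 in siPC1+siMRTF-A. The value of -0.32 belongs to the shallow siPC1 replicate 1. Without that library 329 transcripts were lowered and 330 raised, and without siPC1 replicates 1 and 4 together 275 were lowered and 327 raised.

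**Figure D3:**
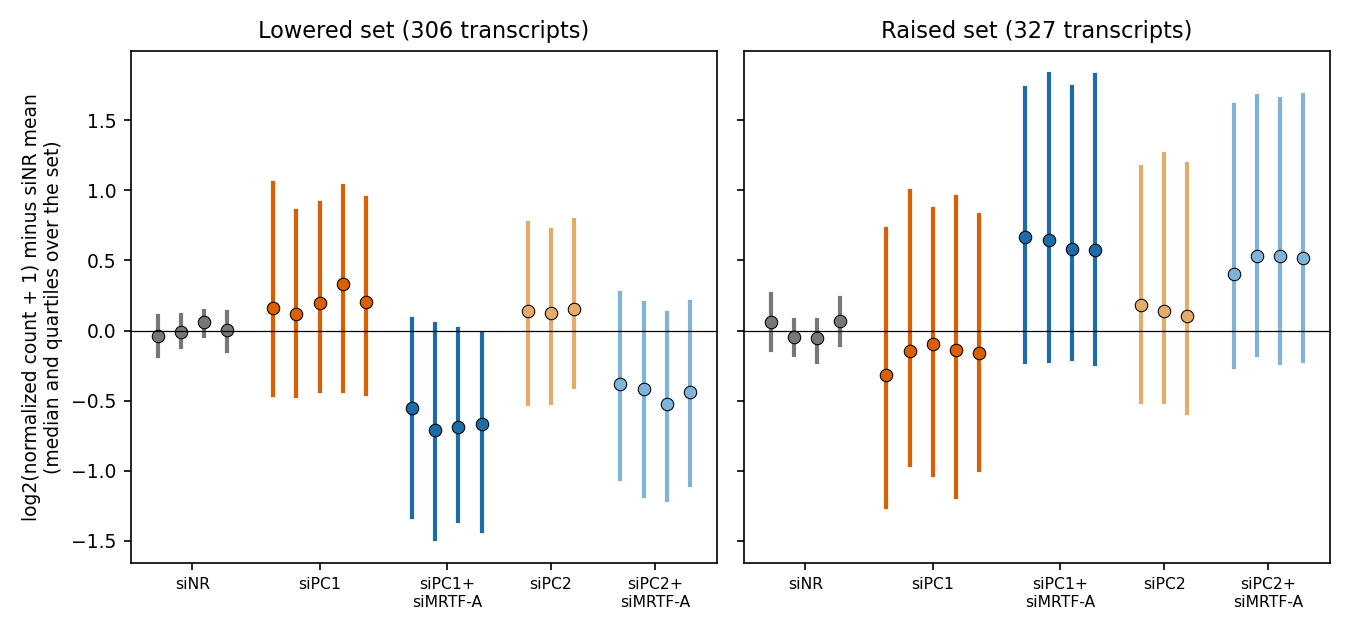
Points give the median, and bars the quartiles, over the 306 lowered (left) and 327 raised (right) transcripts of log2(normalized count + 1) minus the siNR mean, for each of the 20 libraries ordered by group on the x axis. In both panels the medians of the siPC1 libraries lie on one side of 0 and those of the siPC1+siMRTF-A libraries on the other. The medians of siPC2+siMRTF-A lie on the same side of 0 as those of siPC1+siMRTF-A. Those of siPC2 lie above 0 in both panels, at 0.12 to 0.16 for the lowered and 0.10 to 0.18 for the raised transcripts. For the raised transcripts siPC2 thus lies on the side opposite to siPC1.

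The cells silenced for polycystin-2 give the same addition of siMRTF-A in libraries outside the siPC1 contrast. Those libraries still had a part in the choice of transcripts, through the shared spread of the fit, the filter and the mean count over 20 libraries. With only the compared groups modelled, 234 of the 306 lowered and 214 of the 327 raised transcripts were called again, and 112 lowered and 44 raised transcripts were common to both arms. Of the 306 lowered transcripts, 293 (95.8%) had a negative log2 fold change when siMRTF-A was added to siPC2, against 47.3% of all tested transcripts. Of the 327 raised transcripts, 298 (91.1%) had a positive one, against 52.3%. The median change after siPC2 was -0.53 (quartiles -0.86 and -0.28) for the lowered and 0.40 (quartiles 0.18 and 0.62) for the raised transcripts, with 0.02 over all tested. These medians are smaller than the -0.79 and 0.80 seen after siPC1, but the transcripts were chosen by their size after siPC1. Taken the other way, transcripts called after siPC2 had medians of -0.61 and 0.41 after siPC1.

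By the same call, 256 transcripts (0.924% of those tested) were lowered and 184 (0.664%) raised on adding siMRTF-A to siPC2. Both lists of lowered transcripts held 123 in common, which is 40.2% of the 306 and 48% of the 256. Both lists of raised transcripts held 55 in common, which is 16.8% of the 327 and 29.9% of the 184. None was called in opposite directions. Without siPC2 replicate 2, the smallest library of that arm, the 2 arms had 117 lowered and 37 raised transcripts in common, and without siPC2 replicate 4 they had 105 and 36. Across the 20212 transcripts with a mean of at least 50, Spearman's rho between the changes in the 2 arms was 0.39, a description over transcripts that are not independent of each other.

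**Figure D4:**
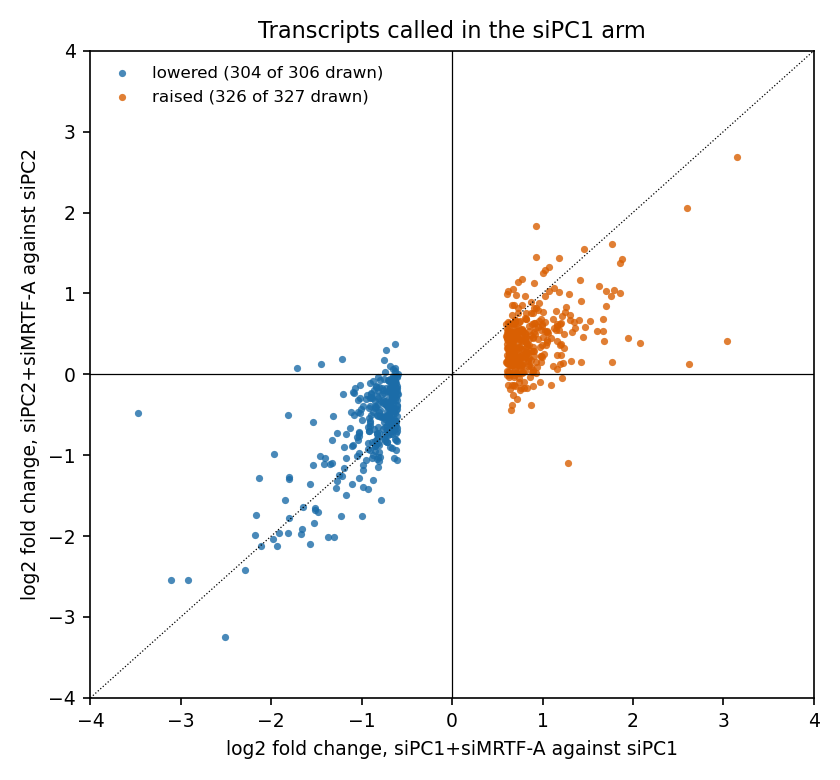
Each point is a transcript called in the siPC1 arm, placed by the log2 fold change that siMRTF-A gave after siPC1 (x axis) and after siPC2 (y axis). Of these, 630 of 633 lie within the limits of 4 and are drawn. Most points have the same sign on both axes, with a median on the y axis of -0.53 for the lowered and 0.40 for the raised transcripts.

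The share of lowered transcripts that were also lowered after siPC2 is given here by the size of the fall after siPC1. Of the lowered transcripts with a change between 0.6 and 0.8, 37 of 155 (23.9%) were called after siPC2. From 0.8 to 1 it was 33 of 72 (45.8%), from 1 to 2 it was 46 of 68 (67.6%), and beyond 2 it was 7 of 11 (63.6%). Of the raised transcripts in the same ranges the shares were 19 of 165 (11.5%), 13 of 80 (16.2%), 22 of 76 (28.9%) and 1 of 6 (16.7%). Under glmTreat, 29 of the 52 lowered transcripts (55.8%) were also lowered after siPC2, as were 0.148% of all tested. The corresponding raised transcripts were 3 of 29 (10.3%), against 0.0433%. By the main call, 47 of those 52 were lowered and 18 of those 29 raised after siPC2. That call lowered 0.924% and raised 0.664% of all tested transcripts after siPC2. The difference between the directions in these shares was not tested.

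**Figure D5:**
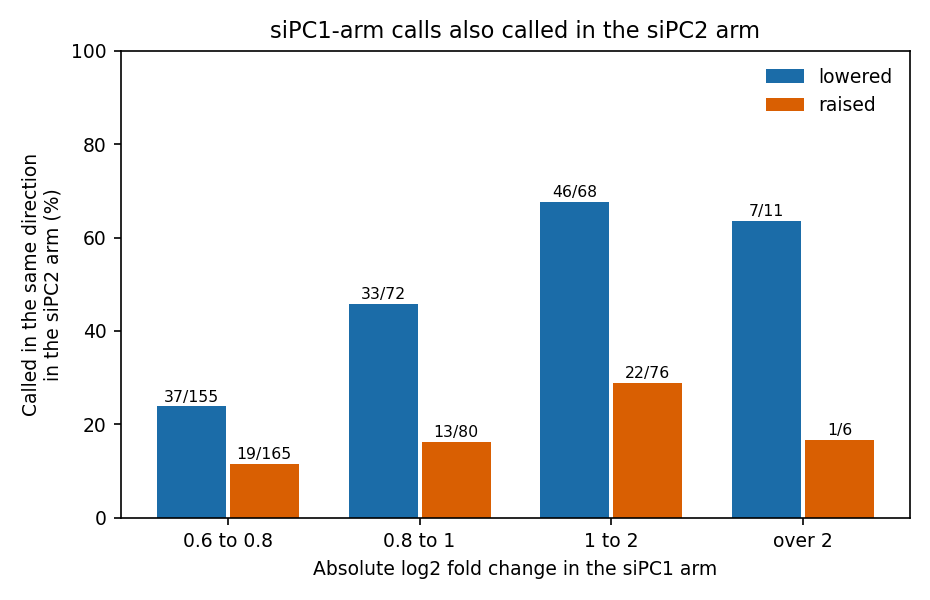
Bars give the percentage of transcripts lowered or raised by siMRTF-A after siPC1 that were called in the same direction after siPC2, by the absolute log2 fold change in the siPC1 arm. The bars of the lowered transcripts go from 23.9% to 67.6% and 63.6%, and those of the raised ones from 11.5% to 28.9% and 16.7%, the last resting on 6 transcripts.

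Whether siMRTF-A acted differently after siPC1 than after siPC2 was tested with an interaction contrast, which was called for 82 transcripts, more positive after siPC1 than after siPC2 for 46 (0.166% of those tested) and more negative for 36 (0.13%). The median size of these differences was 0.80 on the log2 scale. Of the 633 transcripts that siMRTF-A changed after siPC1, 27 (4.27%) were among them, 6 lowered and 21 raised. Those 21 raised transcripts had a median change of -0.09 after siPC2, and the 6 lowered ones 0.03. The share of 4.27% and these medians follow in part from the choice of the transcripts, since the interaction contrast includes the change after siPC1. For the rest the test did not find a difference, which does not show that the arms respond alike, since the median standard error of the difference was 0.21. The number of calls depended on the tool and on single libraries. DESeq2 called 271 transcripts for the same contrast. With edgeR there were 51 calls without siPC1 replicate 3, and 53, 38, 42 and 50 without siPC1+siMRTF-A replicates 1, 2, 3 and 4. In the siPC2 arm there were 51 without siPC2 replicate 3, and 43, 47 and 40 without siPC2+siMRTF-A replicates 1, 2 and 4.

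Many of the transcripts that MRTF-A silencing changed after siPC1 also differed between siPC2 and siNR, a comparison that shares no library with the siPC1 arm. That comparison raised 12% and lowered 10.1% of all transcripts tested, or 16.5% and 13.9% of those with a mean of at least 50. Among the lowered transcripts 90 (29.4%) were raised and 58 (19%) lowered by siPC2. Among the raised transcripts 121 (37%) were raised and 75 (22.9%) lowered. The median change by siPC2 was 0.12 for the lowered and 0.14 for the raised transcripts. In the fit of all 5 groups, all 4 shares lay above the background for the same direction of siPC2. Whether they differ from it was not tested. Both comparisons drew on the shared spread of a single fit, so their calls are not independent. With only the compared groups modelled, 80 of the 265 lowered transcripts were raised and 40 lowered by siPC2. Of the 231 raised ones, 86 were raised and 35 lowered. The shares over all tested transcripts were not taken for these fits, so the counts have no background beside them.

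Most transcripts had counts that were not whole in at least 1 of the 9 libraries, so reads were divided between them and others. A whole number, a count of 0 included, shows no such division but does not prove that no read was shared. Counts were whole in all 9 libraries (within 0.001) for 19 of the lowered transcripts (6.21%) and 24 of the raised ones (7.34%), against 5.66% of all tested and 2.95% of those tested with a mean of 50 or more, the minimum that a call needs. For the rest, a change can be in the transcript named or in how reads were divided between it and its relatives. When the 1569 whole-count transcripts were adjusted on their own, 17 were lowered and 24 raised. These were 1.08% and 1.53% of the 1569, of which only 597 reached the mean of 50 that a call needs. With each of the 9 compared libraries left out in turn, 188 of the 306 lowered transcripts (61.4%) and 201 of the 327 raised ones (61.5%) were called every time.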

How the data were processed

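RNA-Seq libraries of LLC-PK1 cells were read from 1 deposited table of estimated counts per Ensembl transcript. The authors made these estimated counts with Salmon, without normalization. The submitters' processing notes name Trim Galore 0.6.3, FastQC 0.11.8, Salmon 0.14.1 and HISAT2, and the study's methods name the pig coding sequences (Sscrofa11.1) as the reference. That reference leaves out reads from untranslated regions, and Salmon divides a read that several transcripts could have given among them. The methods also describe gene-level sums and removal of low counts, neither of which the table shows (46295 transcripts listed, 8733 at 0 in every library). Single-read and paired-end sequencing are both named, without saying which library had which. All 20 columns were matched to samples by title, and 0 columns had no sample.

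After rounding, edgeR 4.0.16 (with limma 3.58.1, in R 4.3.3) was run on these counts. Transcripts were kept by filterByExpr by group (27702) and scaled with TMM factors. All 5 groups entered a single quasi-likelihood fit, and p-values were adjusted over all tested transcripts. Standard errors follow from the F statistic of each contrast. A normalized count is a count divided by the effective library size relative to its mean over libraries. Calls required a Benjamini-Hochberg adjusted p no higher than 0.05, a log2 fold change beyond 0.6 in either direction and an average of 50 or more normalized counts. The transcripts named are the 2 with the largest fall and the 2 with the largest rise among those called, called by glmTreat and without overlap between groups. The members, the lists and this rule were chosen with earlier results of these data known. Lists of MRTF targets, matrix, immune and mitochondrial genes and cell type markers were prepared but not used, since no identifier could be paired with a gene.

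The alternatives were DESeq2 1.42.0, library totals, a looser filter (1 count or more in 3 or more libraries), only the compared groups in the model, the replicate number as a block, no minimum mean, no fold threshold, glmTreat, whole-number counts only and each of the 9 compared libraries left out. Leaving out siPC1 replicates 1 and 4 together, leaving out each of the other 11 libraries, and the comparison with siPC2 against siNR were added after seeing the data. On simulated data the edgeR steps were tested first. Totals from 4421001 to 52367885 in the compared groups set the precision. The floor of 3 counts used for groups at 0 covers counting error only.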

Additional observations from a re-analysis of the deposited data

Results flagged for a closer look

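The following results stood out by fixed rules. In 2 transcripts the effect of siMRTF-A differed between the siPC1 and the siPC2 arm by the interaction test of edgeR. For ENSSSCT00000030069.3 the adjusted p of the difference was 0.00425, with a rise of 2.62 on the log2 scale after siPC1 in 4 of 4 libraries and 0.13 after siPC2. For ENSSSCT00000084059.2 it was 0.0248, with the transcript at 590.3 to 920.1 normalized counts in siPC1+siMRTF-A and at 0 in siPC2+siMRTF-A. That difference passed the threshold only with all libraries of siPC1+siMRTF-A and with siPC2 replicate 3, and its adjusted p was 0.144 with the replicate number as a block.

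Single libraries far from the rest of their group were flagged in 3 of 23 groups of values checked, where chance flags about 1 in 20. ENSSSCT00000048745.2 had 439.4 normalized counts in siNR replicate 2, against 510.6 to 518.8 in the other siNR libraries. The lowered transcripts held 1.577% of the counts of siPC1+siMRTF-A replicate 2, against 1.81% to 1.85% in the other libraries of that group. The median level of the raised transcripts was -0.32 in siPC1 replicate 1, against -0.16 to -0.10 in the other siPC1 libraries.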

How the results depend on the processing

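In every alternative run, 0 of the 633 called transcripts changed sign, not counting any that the run left out. With no minimum mean, no fold threshold, glmTreat or whole-number counts only, the log2 fold changes were the same, so no sign could change. The 306 lowered and 327 raised transcripts became 1077 and 1213 with no fold threshold, 52 and 29 with glmTreat, and 17 and 24 among whole-number counts alone. The 123 lowered and 55 raised in both arms became 390 and 257 with no fold threshold and 29 and 3 with glmTreat, and DESeq2 gave 87 raised in both. The 82 interaction calls became 271 with DESeq2, 171 with no fold threshold and 5 with glmTreat. Leaving out each of the 20 libraries in turn gave 255 to 335 lowered, 267 to 356 raised, 105 to 131 lowered in both arms, 36 to 63 raised in both arms and 38 to 96 interaction calls. The 36 came without siPC2 replicate 4. The fewest interaction calls came without siPC1+siMRTF-A replicate 2. DESeq2 lowered 395 and raised 406 transcripts, of which 298 and 311 were among the 306 and 327. Raised transcripts that siPC2 lowered against siNR numbered 75, and 35 with only the compared groups modelled.

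Same-numbered libraries of the 2 groups correlated at 0.0336 to 0.306 in their deviations from the group means, over 0.1 in 2 of 4 pairs, and 5 of 8 libraries correlated best with their own number. Pairs of different number correlated at -0.315 to 0.159. Whether equal numbers mark libraries handled together is not given by the labels and was not tested. The main fit did not use the numbers. With the replicate block, siPC1 A2 left out, 319 transcripts were lowered and 349 raised, 269 and 285 of them shared with the reported ones, and the interaction of ENSSSCT00000084059.2 had an adjusted p of 0.144 (edgeR). The block changed no other call of a named transcript. Sums per gene were not run, since the files do not pair transcripts with genes. Depth limits siPC1 replicate 1, where a normalized count of 100 is 12.8 reads.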
